A study of Mus musculus with 46 samples.

Results

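The Rab genes encode the largest branch of the Ras-like small GTPases, and 59 of them were described here in microglial RNA of mice (microglia are the brain's own macrophages). Members were all rows of the deposited count table whose gene symbol was Rab followed by a number, with or without a letter behind it. All 59 had at least 1 count in some library, out of 54134 gene symbols in the table, of which 31448 had a count. Pseudogene rows, whose symbols carry a hyphen, were left out by this rule. The name pattern used no measured value, but the set was proposed with earlier results of these data known.

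The 46 libraries came from wild-type mice (WT, 22 libraries) and from 5xFAD mice (labelled AD, 24 libraries), an Alzheimer's disease model that carries mutant human transgenes under a promoter active in neurons. Their food held no fiber (zero fiber), was the control diet, or contained HAMSAB, a high-amylose maize resistant starch to which acetate and butyrate are bound. Each of the 6 diet-by-genotype groups had 4 female and 4 male libraries, except zero fiber WT with 4 female and 2 male. The labels used here give no age, no time on the diet and no isolation method for the cells. Whether each library came from a mouse of its own is not said, and the p-values then measure only the spread between these libraries, which may be technical.

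Rab proteins switch between a GTP-bound form, which sits on a membrane and recruits effectors, and a GDP-bound form, which the GDP dissociation inhibitor (GDI) draws back into the cytosol. Guanine nucleotide exchange factors (GEFs, among them the DENN-domain proteins) load GTP, GTPase-activating proteins (GAPs, mostly TBC-domain proteins) end the active state, and prenyl groups on the tail anchor the protein. Different Rabs mark different compartments, and in microglia and other macrophages they serve the phagosome, the recycling of surface receptors, the lysosome and secretion. The kinase Lrrk2 phosphorylates a subset of them, among them Rab8, Rab10 and Rab12, and the phosphatase Ppm1h removes that phosphate.

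Total counts per library ran from 52114 to 6950429, with a median of 2344837.5 and a second lowest of 783849. The lowest total belonged to zero fiber AD male replicate 2. The library labelled zero fiber AD female replicate 1 had a sex-gene pattern that went against its label. These 2 libraries were kept. Without them, Rab12, Rab6b, Rab7, Rab3a, Rab1a, Rab40c, St5, Dennd6a, Ric1 and Ppm1h each stayed on their side of the threshold in the 5 pairwise and genotype-difference comparisons that use zero fiber AD, and no fold change moved by more than 1.09 times. The microglial markers P2ry12, Tmem119, Cx3cr1, Csf1r and Sall1 had counts in all 46 libraries.

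The stretch of genome before the start of Rab12 is shown because Rab12 was the member that differed most between the groups. It lies on chromosome 17 at chr17:66519730-66519920 (GRCm38.p6, minus strand), written 5′ to 3′ in the direction of transcription and ending next to the GENCODE gene model, with a GC box in capitals. The sequence is RefSeq's.
Rab12: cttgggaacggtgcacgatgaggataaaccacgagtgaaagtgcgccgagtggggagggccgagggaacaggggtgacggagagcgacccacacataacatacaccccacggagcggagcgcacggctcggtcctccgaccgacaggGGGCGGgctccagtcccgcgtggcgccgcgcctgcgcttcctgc
The whole window of 250 bases before Rab12's RefSeq start, of which 191 bases are printed, had 67.6% G and C and 26 CpG dinucleotides. RefSeq windows matched 48 of the 59 Rab genes, giving 60 windows. Their median was 60.2% G and C and 15 CpG dinucleotides, against 52.4% and 6 over all 32851 windows of the same length. The GC box GGGCGG, searched on both strands, was in 66.67% of the Rab windows and in 32.74% of all windows. A CCAAT box (CCAAT) was in 24 of 60 Rab windows against 33.85% of all windows, and a TATA box (TATAAA) in 6.67% against 12.37%. These are matches of letters, and no binding was measured.

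Levels between genes were compared as TPM, which divides the counts by the summed exon length of the gene before scaling each library to a common total. Summed over the 59 genes, the Rab level was 2593 ± 140.5 TPM (SD, n = 46). The 15 highest members held 75.79% of it and the 5 highest 35.68%. A mean above 100 TPM was seen for 10 members, and 17 had a mean under 1 TPM. Thus a small part of the family made up most of its RNA in these cells, and it included members of the ER-to-Golgi, endosomal, lysosomal and secretory routes.

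**Figure D1:**
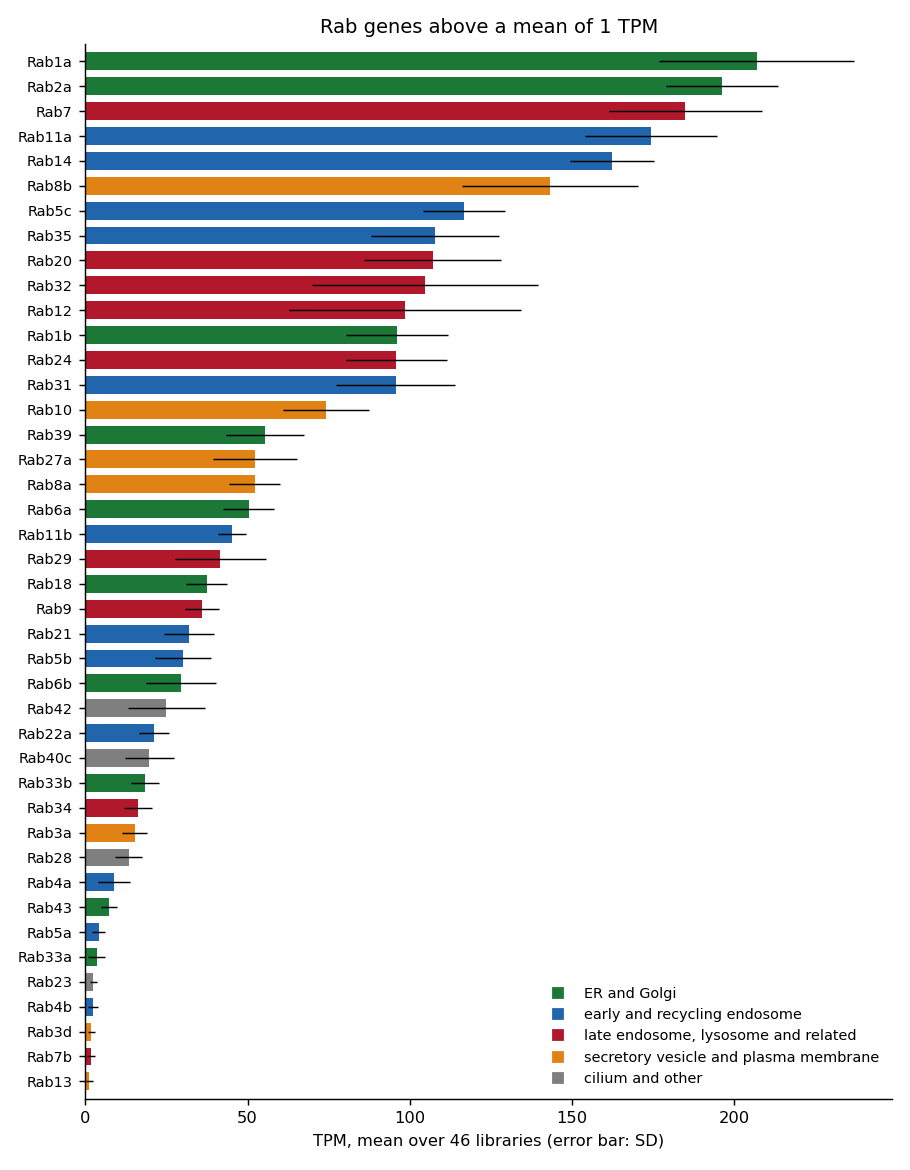
The bars give the mean TPM of each Rab gene above 1 TPM over 46 libraries, with the SD as error bar and the colour showing the compartment class. Rab1a, Rab2a and Rab7 lead with means of 207, 196 and 185 TPM, and the widest error bars relative to the mean among the 15 highest are those of Rab12 and Rab32.

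Among the 14 Rabs of the ER and Golgi, which together held 27.09% of the Rab level, Rab1a and Rab2a were highest. Rab1a, which acts in transport from the ER to the Golgi, had 207 ± 29.99 TPM (SD, n = 46). Rab2a, which acts at the early Golgi and in fusion of late vesicles with lysosomes, had 196 ± 17.3 TPM. Rab1a was above Rab2a in 30 of 46 libraries, so their order was not fixed. Rab1b, the close copy of Rab1a, had 96.1 ± 15.7 TPM. Rab39 (55.4 TPM), Rab6a (50.3 TPM), Rab18 (37.4 TPM), Rab6b (29.4 TPM) and Rab33b (18.3 TPM) followed. Rab6a and Rab6b act in traffic within and from the Golgi, Rab18 at lipid droplets and the ER, and Rab33b binds the autophagy factor Atg16l1.

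The 15 Rabs of early and recycling endosomes held 30.9% of the Rab level. Rab11a, a Rab of the recycling endosome, had 174.5 ± 20.4 TPM, and Rab14, which links the Golgi, endosomes and young phagosomes, had 162 ± 12.9 TPM. Rab5c, 1 of 3 Rab5 isoforms that organise the early endosome, had 117 ± 12.7 TPM, and Rab35, a Rab of fast recycling and of phagocytic cups, had 108 ± 19.7 TPM. Rab31, which moves cargo between the trans-Golgi network and endosomes, had 95.6 ± 18.5 TPM. Rab14 had the largest raw count of all members (90730 over 46 libraries), and its place depends on the length used, because its exons together span 13589 bases and its longest transcript 5003. With the longest transcript in place of all exons it ranked 1 and not 5. The same 15 genes were on top by either length.

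The 12 Rabs of late endosomes, lysosomes, phagosomes and autophagosomes held 26.5%. Rab7, the main Rab of late endosomes and lysosomes, had 185 ± 23.5 TPM. Rab20, which sits on macrophage phagosomes, had 107 ± 21.2 TPM, and Rab32, a Rab of lysosome-related organelles and mitochondria, had 105 ± 34.7 TPM. Rab12, which directs recycling cargo to lysosomes and takes part in autophagy, had 98.6 ± 35.9 TPM, and Rab24, an atypical Rab linked to autophagy, had 95.9 ± 15.5 TPM. Rab29, which recruits Lrrk2 to membranes, had 41.6 ± 13.9 TPM. From Rab35 down to Rab31 the neighbours in rank were higher in only 23 to 27 of 46 libraries, so the order of neighbours among these 7 members was not fixed, and members further apart were not compared.

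The 12 Rabs of secretory vesicles and the plasma membrane held 13.16%, led by Rab8b (143 ± 27.2 TPM) and Rab10 (74.1 ± 13.2 TPM), which carry vesicles to the plasma membrane. Rab27a, which docks lysosome-related and exosome-bearing compartments for secretion, had 52.3 TPM, as did Rab8a with 52.2 TPM. Rab3a, known for synaptic vesicles, had 15.2 ± 3.82 TPM and was the highest Rab3. The last 6 members (cilium and other) held 2.351%, with Rab42 (24.99 TPM) and Rab40c (19.7 TPM) on top.

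Within families, 1 copy usually dominated. Rab2a was 275 times as high as Rab2b and Rab7 106 times as high as Rab7b, in all 46 libraries. Rab27b had 17 counts in all libraries together against 8273 for Rab27a, Rab38 had 3 against 9753 for Rab32, Rab9b had 2 against 2546 for Rab9, and Rab39b had 10 against 6844 for Rab39. Other families were shared: Rab1a was 2.15 times Rab1b (higher in 46 of 46 libraries), Rab8b 2.75 times Rab8a (46 of 46), Rab11a 3.87 times Rab11b (46 of 46) and Rab6a 1.71 times Rab6b (42 of 46). In the Rab5 family the order was Rab5c, then Rab5b (30.1 TPM), then Rab5a (4.08 TPM), with Rab5c above Rab5b in 45 of 46 libraries. How the authors counted reads that match several genes is not given in the sources used here, so levels of close copies carry that uncertainty. The strand setting is not given either, and 1258 of the 2015 exon bases of Rab24 overlap Prelid1 on the other strand, 708 of 3728 bases of Rab6a overlap Mrpl48, and 143 bases of Rab10 overlap Rab10os.

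**Figure D2:**
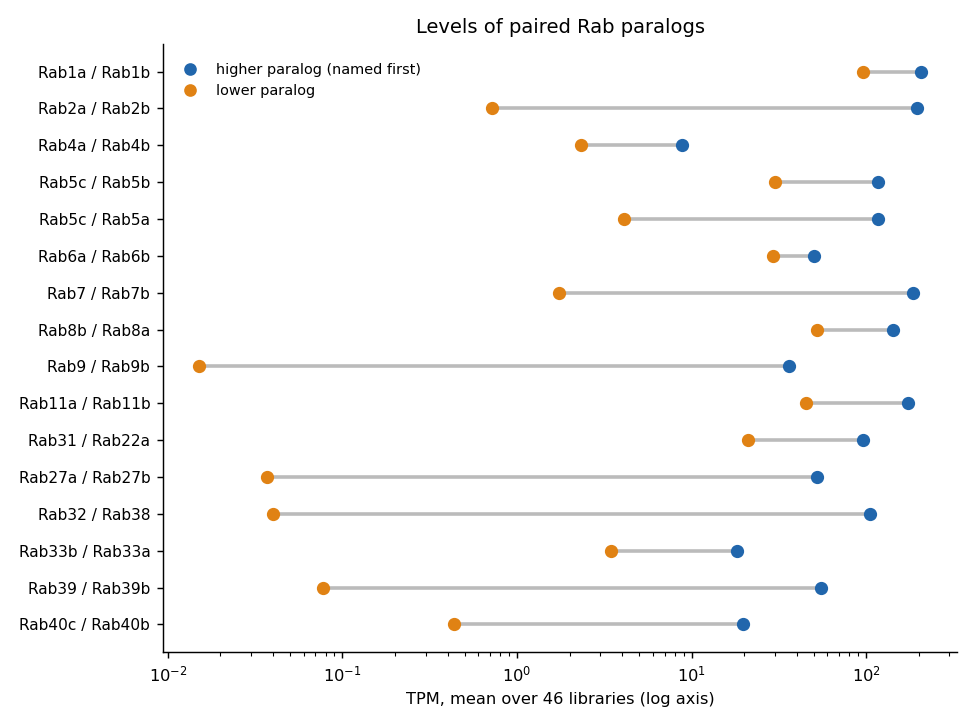
Each line joins the mean TPM over 46 libraries of a Rab gene (blue) and a close paralog (orange) on a log axis. The gap is widest for Rab32 and Rab38, Rab9 and Rab9b, Rab27a and Rab27b, and Rab39 and Rab39b, where the paralog had at most 17 counts in all libraries, and narrowest for Rab6a and Rab6b at 1.71 times.

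Over the 6 diet-by-genotype groups the most abundant Rabs moved little. Of the 59 members, 39 passed the low-count filter and were tested, and the other 20 had 2 to 185 counts in total. Leaving Rab12 aside, the other 14 of the 15 highest members had a ratio of highest to lowest group mean between 1.03 (Rab1b) and 1.28 (Rab35). Rab14, for example, had group means from 754.5 to 819 CPM (counts scaled to a common library total), and Rab11a from 179 to 197 CPM. A ratio above 1.5 was seen for 7 tested members, of which only Rab12 and Rab6b had a mean above 10 TPM.

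Tests used edgeR's quasi-likelihood method on all 12121 genes that passed the filter, with Benjamini-Hochberg adjustment over all of them and a threshold of 0.05. Across the 6 groups, 1 of 39 tested Rab genes changed, Rab12, beside 4.36% of all genes tested. Without adjustment, 4 had p under 0.05 (Rab12, Rab35, Rab27a and Rab6b), beside 18.8% of all genes. HAMSAB against zero fiber in WT raised 2 of 39, Rab12 and Rab6b, beside 1.86% of all genes higher and 2.19% called in either direction. AD against WT on HAMSAB lowered 1 (Rab12), beside 1.47% of all genes lower and 1.68% called in either direction. The difference between genotypes in the response to HAMSAB against zero fiber was called for 1 (Rab12, lower), beside 1.02% of all genes lower and 1.08% called in either direction. At an unadjusted p under 0.05 these 3 comparisons had 3, 5 and 3 Rab genes, beside 12%, 12% and 9.46% of all genes. These shares of called Rab genes rest on 1 or 2 genes each and are near the background. The comparisons share groups, so their calls are not independent of each other.

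The median log2 fold change of the 39 members stayed near that of all genes in each comparison. It was 0.05 against 0.00 for HAMSAB against zero fiber in WT, 0.06 against 0.00 for the same diets in AD, and 0.03 against 0.00 for AD against WT on HAMSAB. Thus the family as a whole showed no common shift beyond 0.06 on the log2 scale in these 3 comparisons.

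**Figure D3:**
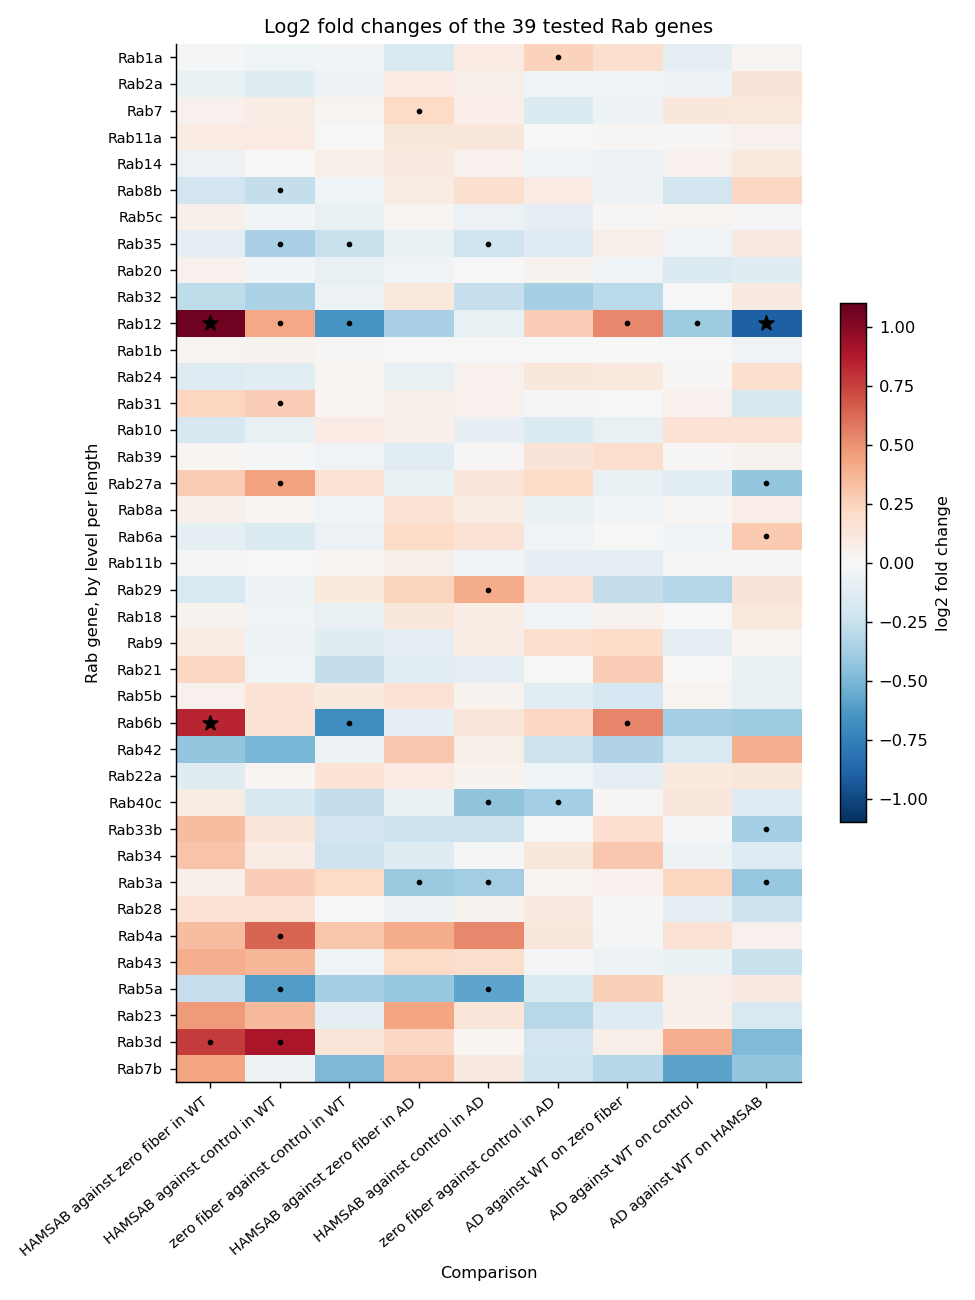
Colours give the log2 fold change of the 39 tested Rab genes in 9 comparisons of 2 groups, with genes ordered by TPM. Stars mark an adjusted p under 0.05 and dots an unadjusted p under 0.05. The stars are on Rab12 in 2 columns and on Rab6b in 1, and the rows of the most abundant genes are pale.

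Rab12 (chromosome 17, 66494512 to 66519729, minus strand, GRCm38) was higher on HAMSAB than on zero fiber in WT microglia, and in AD microglia these diets were not called different. In zero fiber WT its lowest, median and highest library were at 54.1, 64.6 and 132 CPM (mean 78.9 ± 31.96, SD, n = 6). In control WT they were at 77.5, 115 and 140 CPM (mean 114 ± 22, n = 8), and in HAMSAB WT at 115.5, 138 and 195 CPM (mean 152 ± 32.1, n = 8). The WT means thus stand in the order zero fiber, control, HAMSAB, and 6 of 8 HAMSAB WT libraries were above every zero fiber WT library, while 1 of 6 zero fiber WT libraries was above the lowest HAMSAB WT library. In AD, zero fiber libraries were at 56.9, 117 and 159 CPM (mean 110 ± 36.9, n = 8). Control AD libraries were at 55.7, 82.4 and 122 CPM (mean 86.9 ± 24.1, n = 8), and HAMSAB AD libraries at 63.4, 72.6 and 134 CPM (mean 83.9 ± 24.2, n = 8). The AD means stand in the opposite order, though not in each subset of libraries, and the 3 groups overlap widely.

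**Figure D4:**
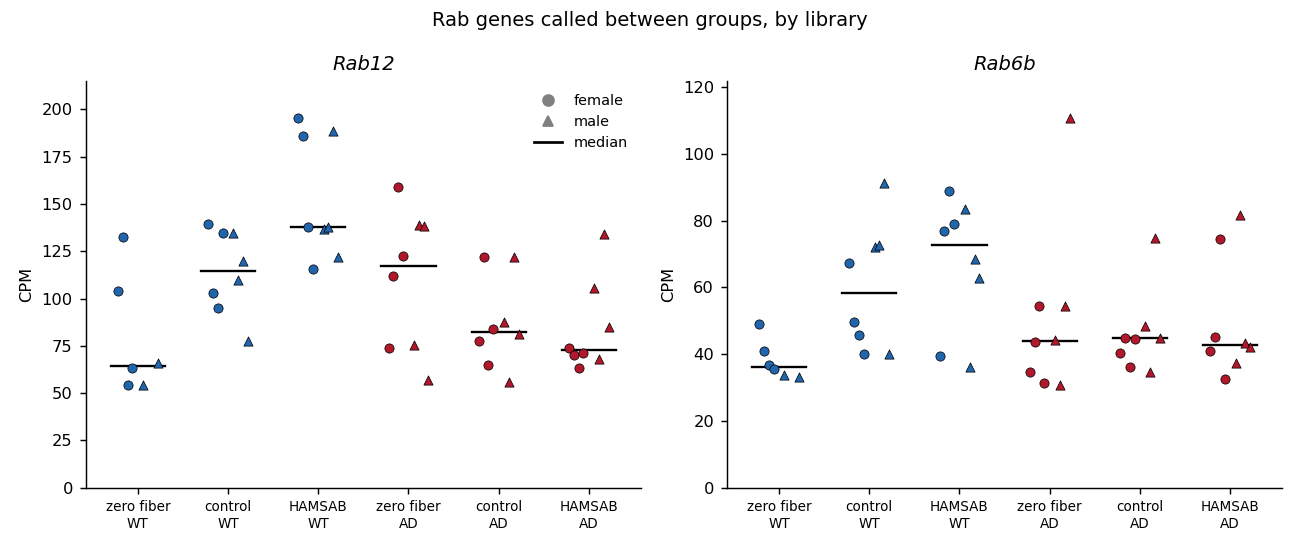
Each point is 1 library's CPM, blue for WT and red for AD, circles for females and triangles for males, with the group median as a line. For Rab12 the WT medians run 64.6, 115 and 138 CPM from zero fiber to HAMSAB and the AD medians run 117, 82.4 and 72.6 CPM, and for Rab6b the zero fiber WT libraries are packed between 33.1 and 49.1 CPM.

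By edgeR, Rab12 was higher by 1.07 ± 0.21 (log2 fold change ± SE) on HAMSAB than on zero fiber in WT, with an adjusted p of 0.00455. On HAMSAB, Rab12 in AD was lower than in WT by a log2 fold change of -0.89 ± 0.18 (adjusted p = 0.00481, edgeR), with 6 of 8 WT libraries above every AD library. The difference of these diet responses between genotypes was itself past the threshold, at -1.42 ± 0.28 on the log2 scale (adjusted p = 0.00684, edgeR). The test over all 6 groups gave an adjusted p of 0.00226 (edgeR). In AD alone, HAMSAB against zero fiber gave -0.35 ± 0.19 on the log2 scale and was not called (adjusted p = 0.523, edgeR).

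The steps to and from the control diet were smaller and were not called with the filter on low counts. In WT, HAMSAB against control gave a Rab12 log2 fold change of 0.42 ± 0.18 (adjusted p = 0.281, edgeR), and zero fiber against control -0.65 ± 0.21 (adjusted p = 0.365). Without the filter edgeR called both for Rab12, at 0.40 (adjusted p = 0.0348) and -0.66 (adjusted p = 0.000356), beside 1.38% and 0.582% of the 31448 genes then tested. These fold changes were not larger than with the filter. For HAMSAB against zero fiber in WT, the Rab12 adjusted p likewise went from 0.00455 to 1.68e-12 (edgeR), at 1.07 and 1.06. The cause of these lower values without the filter was not tested. The genotype difference was 0.53 ± 0.22 on zero fiber (adjusted p = 0.999) and -0.39 ± 0.18 on control (adjusted p = 0.908), again as edgeR log2 fold changes. Females and males differed by 0.10 ± 0.11 (adjusted p = 0.802, edgeR).

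The order of these WT means was the same in both ranges of title numbers and in both sexes. Among libraries whose title number was below 2900, HAMSAB WT averaged 169 CPM (n = 5) and zero fiber WT 89.0 CPM (n = 4), and from 2900 on 125 CPM (n = 3) and 58.8 CPM (n = 2); the labels do not say what the number stands for. Females averaged 159 CPM on HAMSAB and 88.4 CPM on zero fiber in WT (n = 4 each), and males 146 CPM (n = 4) and 59.9 CPM (n = 2). The order of the AD means was not the same throughout. AD males averaged 102 CPM on zero fiber, 86.6 CPM on control and 98.2 CPM on HAMSAB, and AD females 117, 87.1 and 69.7 CPM (n = 4 each). Below 2900 these AD means were 107 (n = 4), 85.8 (n = 4) and 93.3 CPM (n = 5). From 2900 on they were 112.5 (n = 4), 87.9 (n = 4) and 66.8 CPM (n = 2). Without the 2 doubted libraries the difference between genotypes in the diet response was -1.49 (adjusted p = 0.00312, edgeR). Leaving out 1 library at a time kept the call of HAMSAB against zero fiber in WT in 12 of 14 fits, and it was lost without zero fiber WT male replicate 1 (adjusted p = 0.0847) and without male replicate 2 (adjusted p = 0.0656), each of which leaves that group 1 male library, assumed to vary like the other groups. The difference between genotypes in the diet response kept its call in 28 of 30 such fits, and lost it without zero fiber WT male replicate 1 (adjusted p = 0.0561) and without zero fiber AD male replicate 3 (adjusted p = 0.0516).

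Markers of other cells were compared in the same groups. The 5 erythroid and choroid plexus markers (4 globins and Ttr) summed to 415 ± 256 CPM in zero fiber WT (range 170.4 to 759) and 153 ± 68.6 CPM in HAMSAB WT (range 42.3 to 229), with control WT at 182 ± 89.1 CPM. In AD they summed to 259 ± 118 CPM on zero fiber (range 124 to 492, or 168 to 333 without the 2 doubted libraries), 160.1 ± 83.1 CPM on control and 215 ± 85.04 CPM on HAMSAB. The marker sum thus ran against Rab12 over the WT groups, and in AD it was highest on zero fiber, where the Rab12 mean was also highest. The 9 perivascular macrophage markers summed to 66.1 CPM in zero fiber WT (range 37.1 to 89.1) and 54.1 CPM in HAMSAB WT (range 29.6 to 80.5), with control WT at 42.1 CPM (range 22.3 to 61.3). In AD these 9 summed to 66.0 CPM on zero fiber (range 32.6 to 99.6), 81.7 CPM on control (range 27.4 to 169.6) and 34.9 CPM on HAMSAB (range 19.8 to 48.0). None of these markers was at 0 in all libraries of these groups. Their part in the Rab12 result was not tested. In bulk RNA, fewer cells of a type and less RNA per cell cannot be told apart.

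The genes next to Rab12 were read as well. Of 11 other tested genes within 1 Mb, only Vapa, an ER protein that tethers other membranes and lies at 65578327 to 65613555, also passed the threshold. Vapa was higher by 0.94 ± 0.24 (log2) on HAMSAB than on zero fiber in WT (adjusted p = 0.0268, edgeR) and changed by -0.74 ± 0.21 in AD against WT on HAMSAB (adjusted p = 0.0494). Rab31, which lies between them, changed by 0.24 ± 0.13 and -0.18 ± 0.11 in these comparisons and was not called (adjusted p = 0.484 and 0.584, edgeR). Of all genes tested, edgeR called 2.19% in the first of these comparisons and 1.68% in the second, in either direction.

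Rab6b (chromosome 9, 103111787 to 103185276, plus strand, GRCm38), the Golgi Rab that is most abundant in neurons, was also higher on HAMSAB than on zero fiber in WT. Zero fiber WT libraries were at 33.1, 36.2 and 49.1 CPM (lowest, median, highest; mean 38.2 ± 6.04, n = 6). HAMSAB WT libraries were at 36.3, 72.6 and 88.8 CPM (mean 66.9 ± 19.7, n = 8), and control WT at 39.98, 58.5 and 91.3 CPM (mean 59.8 ± 18.7, n = 8). Of the HAMSAB WT libraries, 6 of 8 were above every zero fiber WT library, while the other 2 lay within the zero fiber range. The log2 fold change was 0.84 ± 0.23 with an adjusted p of 0.0452 (edgeR), close to the threshold.

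This Rab6b call did not hold under each setting. By limma voom it was 0.79 with an adjusted p of 0.0503, and leaving out 1 library at a time kept it in 4 of 14 fits, with the highest adjusted p, 0.267, without zero fiber WT male replicate 2 (edgeR). The AD groups had Rab6b means of 50.6 ± 26.01 CPM on zero fiber, 46.1 ± 12.5 CPM on control and 49.7 ± 18 CPM on HAMSAB (n = 8 each). Zero fiber AD held the highest library of all 46, male replicate 4 at 111 CPM. The difference between genotypes in the response to HAMSAB against zero fiber was -0.93 ± 0.31 on the log2 scale and was not called (adjusted p = 0.174, edgeR), though it was without the filter on low counts (-0.90, adjusted p = 0.00073). The 6 neuronal markers summed to 16.5 ± 7.72 CPM in HAMSAB WT (range 9.68 to 32.3) 12.97 ± 5.70 CPM in zero fiber WT (range 6.20 to 19.6) and 9.39 ± 3.79 CPM in control WT (range 3.49 to 16.4). Control WT was thus lowest of the 3 in these markers and between the other two in Rab6b. Gad1 and Slc17a7 were at 0 in 27 and 26 of the 46 libraries. Their part in the Rab6b values was not tested.

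Rab6a, the copy of Rab6b found in most tissues, was called in no comparison. Its group means ran from 61.4 CPM in HAMSAB WT to 74.6 CPM in HAMSAB AD, and AD against WT on HAMSAB gave a log2 fold change of 0.29 ± 0.10 (unadjusted p = 0.0084, adjusted p = 0.18, edgeR).

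In the other comparisons no Rab gene was called with the filter on low counts. For HAMSAB against control in WT, 0.281% of all genes were called, and 8 Rab genes had an unadjusted p under 0.05 by edgeR (13.3% of all genes did), with 0 called by DESeq2 and 0 by limma voom. The smallest was that of Rab35, whose libraries were at 77.7, 89.2 and 126 CPM on HAMSAB and 92.7, 115 and 144 CPM on control (lowest, median, highest), a log2 fold change of -0.35 ± 0.10 with an adjusted p of 0.108 (edgeR). Without HAMSAB WT male replicate 4 it was -0.42 with an adjusted p of 0.0252 (edgeR). That was the only 1 of 16 fits leaving out 1 library that called Rab35, and the highest adjusted p was 0.256 (edgeR). Rab27a was next, at 75.1, 84.9 and 118 CPM on HAMSAB and 50.8, 70.3 and 80.6 CPM on control, a log2 fold change of 0.44 ± 0.15 (adjusted p = 0.16, edgeR, and 0.0386 without the filter).

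Rab27a in HAMSAB WT was also above HAMSAB AD, where its libraries were at 48.5, 64.8 and 122 CPM. AD against WT gave -0.43 ± 0.15 on the log2 scale (adjusted p = 0.144, edgeR). By limma voom it was called (-0.48, adjusted p = 0.0387), and edgeR called it without the filter on low counts (-0.42, adjusted p = 0.032). With the filter, edgeR also called it without HAMSAB AD female replicate 1, the library at 122 CPM (-0.59, adjusted p = 0.0179). That was the only 1 of 16 fits leaving out 1 library that called Rab27a, and the highest adjusted p was 0.355 (edgeR).

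In AD, the diet comparisons called 0 of 39 Rab genes by edgeR, DESeq2 and limma voom. Beside this, edgeR called 0.239% of all genes for HAMSAB against zero fiber, 0.0743% for HAMSAB against control and 0.0578% for zero fiber against control. At an unadjusted p under 0.05 there were 2, 5 and 2 Rab genes, beside 10.6%, 15.3% and 10.8% of all genes. On HAMSAB against zero fiber the smallest p values were those of Rab7, with a log2 fold change of 0.22 ± 0.09 (adjusted p = 0.352, edgeR), and Rab3a, with -0.41 ± 0.19 (adjusted p = 0.433). On HAMSAB against control they were those of Rab40c, -0.44 ± 0.17 (adjusted p = 0.196), and Rab29, 0.40 ± 0.17 (adjusted p = 0.228), again on the log2 scale. On zero fiber against control they were Rab1a, 0.26 ± 0.09 (adjusted p = 0.275), and Rab40c, -0.37 ± 0.18 (adjusted p = 0.445).

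Zero fiber against control in WT called 0 Rab genes by edgeR, DESeq2 and limma voom, beside 0.00825% of all genes by edgeR, with 3 Rab genes (Rab12, Rab6b and Rab35) at an unadjusted p under 0.05 and 7.58% of all genes. Rab6b gave -0.68 ± 0.23 on the log2 scale there (adjusted p = 0.393, edgeR, and 0.0009 without the filter). AD against WT called 0 on zero fiber (0.00825% of all genes called by edgeR) and 0 on control (0.0% of all genes called) by the 3 tools, with 2 and 1 Rab genes at an unadjusted p under 0.05, beside 4.7% and 5.4% of all genes. Those were Rab12 and Rab6b on zero fiber and Rab12 on control. The differences between genotypes in the response to HAMSAB against control and to zero fiber against control were called for 0 Rab genes by the same tools and for 0.0% of all genes by edgeR, with 3 Rab genes each at an unadjusted p under 0.05, beside 5.53% and 6.17% of all genes. The latter were led by Rab12 (0.92 ± 0.28 on the log2 scale) and Rab6b (0.90 ± 0.31), both with an adjusted p of 0.517 (edgeR; 0.000143 and 0.00151 without the filter), and the former by Rab3a (-0.66 ± 0.25) and Rab8b (0.43 ± 0.18), both with an adjusted p of 0.873.

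Between females and males 0 Rab genes were called by edgeR, DESeq2 and limma voom, beside 0.124% of all genes by edgeR, and 2 had an unadjusted p under 0.05, beside 10.5% of all genes. Rab3d, a Rab of secretory granules, was higher in females by 0.67 ± 0.21 on the log2 scale (adjusted p = 0.192, edgeR) from a low level of 1.85 ± 0.955 TPM. Rab8b differed by -0.19 ± 0.08 (adjusted p = 0.341, edgeR).

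The 14 Rab substrates of Lrrk2 among the members included 12 that were tested. Of these, Rab12 alone was called in any comparison, with the calls already given above. Across the 6 groups 4.36% of all genes were called by edgeR. For HAMSAB against zero fiber in WT, AD against WT on HAMSAB, and the genotype difference in HAMSAB against zero fiber, the shares were 2.19%, 1.68% and 1.08%. The median log2 fold change of the 12 was 0.05 for HAMSAB against zero fiber in WT and 0.03 for AD against WT on HAMSAB. Lrrk2 itself had 6 counts in all 46 libraries together and was not tested. Lrrk1, its relative, had 25.7 ± 3.45 TPM. The phosphatases Ppm1h and Ppm1m had 42.2 ± 10.7 and 36.96 ± 6.58 TPM.

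Of 3 tested Rab kinases and phosphatases, 1 was called higher on HAMSAB than on zero fiber in WT, Ppm1h, beside 1.86% of all genes higher. It was also the only 1 of the 3 with a positive log2 fold change there. Ppm1h moved in WT in the same direction as Rab12. Zero fiber WT libraries were at 116, 130 and 147 CPM (lowest, median, highest; n = 6), and HAMSAB WT libraries at 161, 202 and 266 CPM (n = 8). All 8 HAMSAB WT libraries were above every zero fiber WT library. The log2 fold change was 0.66 ± 0.16 (adjusted p = 0.0196, edgeR). It was lost without zero fiber WT male replicate 1 (adjusted p = 0.13), male replicate 2 (adjusted p = 0.157) or HAMSAB WT female replicate 1 (adjusted p = 0.0571). On HAMSAB, AD against WT gave -0.53 ± 0.14 (adjusted p = 0.0373, edgeR), beside 1.47% of all genes lower. This was not called with a term for the title number (-0.49, adjusted p = 0.0832) and held in 7 of 16 fits that left out 1 library. The difference between genotypes in the Ppm1h response to HAMSAB against zero fiber was -0.73 on the log2 scale and was not called (adjusted p = 0.0951, edgeR).

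Of the 38 Rab GEFs with a row, 34 were tested, and 2 rose on HAMSAB against zero fiber in WT, St5 and Dennd6a, beside 1.86% of all genes higher. St5 (also named Dennd2b) is a DENN-domain exchange factor, and its libraries were at 38.3, 44.6 and 48.6 CPM on zero fiber WT and 37.6, 74.1 and 142 CPM on HAMSAB WT. Of the latter, 7 of 8 were above every zero fiber WT library and 1 was below all of them. The log2 fold change was 0.83 ± 0.20 (adjusted p = 0.0196, edgeR), and -0.84 ± 0.18 for AD against WT on HAMSAB (adjusted p = 0.00565). St5 was also called for HAMSAB against control in WT (0.74 ± 0.18, adjusted p = 0.0483, edgeR), but not with the title number term (0.56, adjusted p = 0.184) or with only the libraries compared (adjusted p = 0.115).

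Dennd6a, which acts on Rab14, had 131 ± 57.1 CPM on zero fiber WT and 241 ± 55.6 CPM on HAMSAB WT. The log2 fold change was 1.02 ± 0.28 (adjusted p = 0.04, edgeR), held in 6 of 14 fits that left out 1 library, and 2 of 6 zero fiber WT libraries were above the lowest HAMSAB WT library. Its target Rab14 gave no call in any of the 14 comparisons. The difference between genotypes in this diet response was called for 3 of the 34 GEFs, beside 1.08% of all genes: St5 (-1.15 ± 0.27, adjusted p = 0.0213), Dennd6a (-1.47 ± 0.37, adjusted p = 0.0323) and Ric1 (-1.43 ± 0.38, adjusted p = 0.0451), all on the log2 scale by edgeR. Ric1, a subunit of the exchange factor for Rab6, had 43.6 ± 14.5 CPM on zero fiber WT and 81.5 ± 21.9 CPM on HAMSAB WT, against 60.6 ± 28.9 and 47.5 ± 18.5 CPM in AD. In WT alone, HAMSAB against zero fiber gave 0.95 for Ric1 on the log2 scale and was not called (adjusted p = 0.0584, edgeR, and 1.64e-08 without the filter). For the difference between genotypes, DESeq2 did not call Ric1 (adjusted p = 0.072), and without zero fiber AD male replicate 3 this difference was -0.98 (adjusted p = 0.316, edgeR). Leaving out 1 library at a time, the call of the difference between genotypes held in 25 of 30 fits for St5, 17 of 30 for Dennd6a and 12 of 30 for Ric1.

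**Figure D5:**
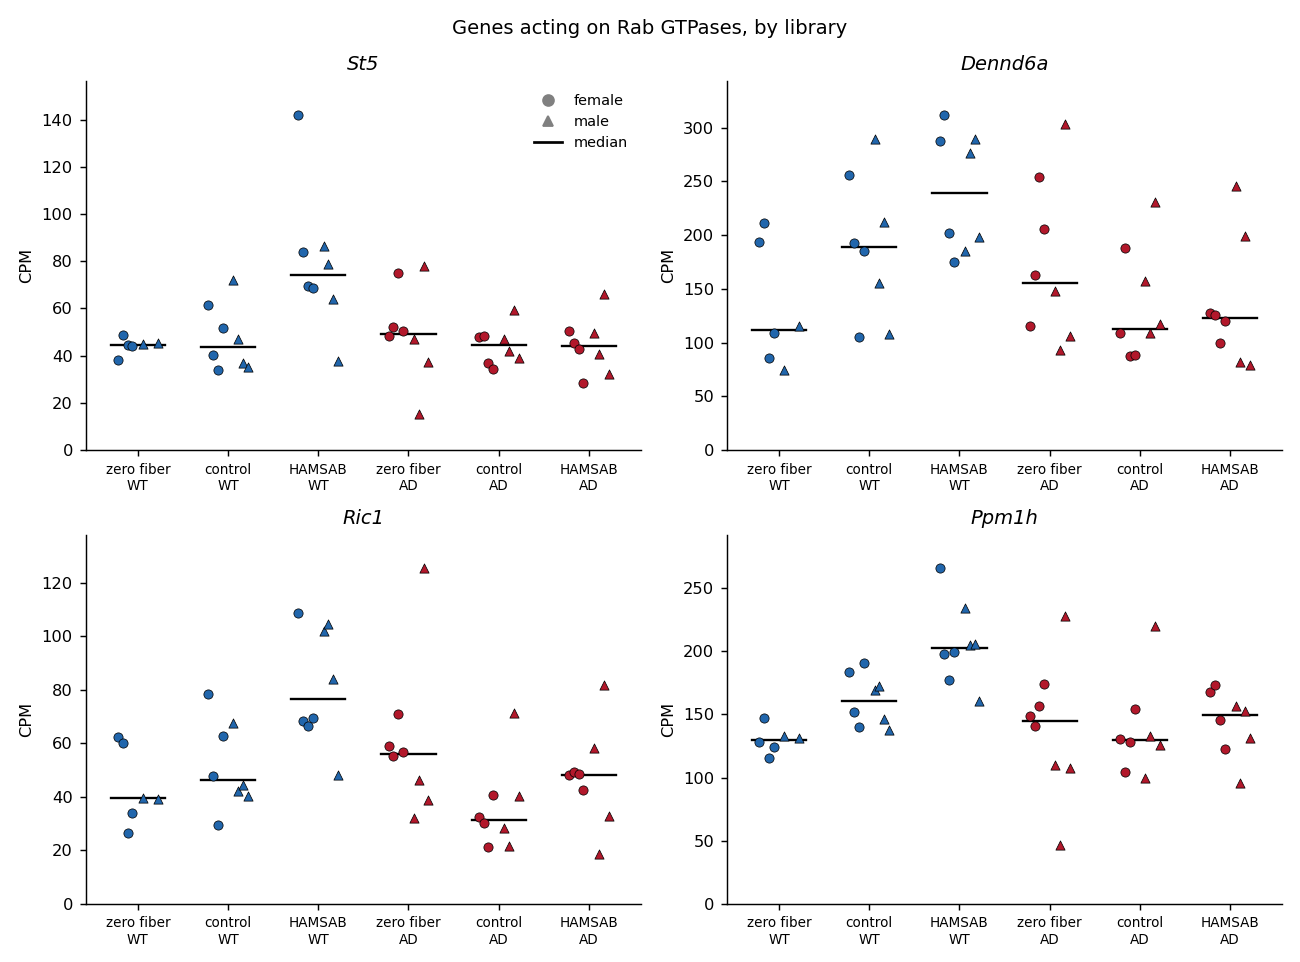
Each point is 1 library's CPM of an exchange factor (St5, Dennd6a, Ric1) or of the phosphatase Ppm1h, blue for WT and red for AD, circles for females and triangles for males, with the group median as a line. In WT the medians on HAMSAB, 74.1, 239, 76.7 and 202 CPM, stand above those on zero fiber, 44.6, 112, 39.5 and 130 CPM. The libraries of these 2 WT groups overlap for St5, Dennd6a and Ric1 but not for Ppm1h, and in AD the groups overlap.

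A further GEF, Rin2, which acts on Rab5, was higher in AD than in WT on HAMSAB by 0.46 ± 0.13 on the log2 scale (adjusted p = 0.0441, edgeR), with group means of 249 ± 44.8 and 181 ± 48.1 CPM. This was not called with the title number term (adjusted p = 0.0752) or with only the libraries compared (adjusted p = 0.079), and held in 5 of 16 fits that left out 1 library.

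Of 35 GAPs 33 were tested, and 0 were called across the 6 groups by edgeR, beside 4.36% of all genes, and 4 had an unadjusted p under 0.05, beside 18.8%. Between the sexes 1 was called, beside 0.124% of all genes: Tbc1d16, a GAP of Rab4, lower in females by a log2 fold change of -0.36 ± 0.08 (adjusted p = 0.0233, edgeR), and not called with the title number term (adjusted p = 0.115). The 8 genes of prenylation and GDI were all tested and 0 were called in any comparison by edgeR, with 2 at an unadjusted p under 0.05 across the 6 groups, where 18.8% of all genes had one and 4.36% were called. Their highest members were Rabac1, a membrane factor that separates Rabs from GDI, with 280.3 ± 42.02 TPM, and Gdi2 with 217 ± 49.1 TPM.

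Of 40 effectors 26 were tested, and 2 changed across the 6 groups, Eea1 and Mlph, beside 4.36% of all genes. Eea1, the Rab5 effector that tethers early endosomes, was highest on the control diet (adjusted p over the 6 groups = 0.00416, edgeR). Its control means were 77.0 ± 40.02 CPM in WT and 64.7 ± 12.5 CPM in AD, against 50.6 ± 10.1 and 41.8 ± 11.1 CPM on HAMSAB. On zero fiber they were 46.8 ± 8.25 and 54.9 ± 22.3 CPM. Control WT libraries ran from 47.4 to 143 CPM with a median of 59.8 CPM, and HAMSAB WT libraries from 39.1 to 67.45 CPM. Eea1 was not called in any comparison of 2 groups. Mlph, a Rab27a effector, ran from 41.3 ± 11.8 CPM in HAMSAB WT to 65.6 ± 15.4 CPM in control AD (adjusted p = 0.0402, edgeR) and was not called with DESeq2's size factors (adjusted p = 0.0505), limma voom (adjusted p = 0.0519) or the title number term (adjusted p = 0.0516). Ehbp1l1, an effector of Rab8 and Rab10, was lower in females by a log2 fold change of -0.26 ± 0.06 (adjusted p = 0.0322, edgeR), lost without a filter on low counts (adjusted p = 0.0577) and in 22 of the 46 fits that left out 1 library.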

How the data were processed

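Mouse microglial RNA was sequenced, and raw counts per gene symbol were deposited by the authors, without normalization, for 46 libraries, all of which were used. The submitters' processing notes name STAR 2.5.2b, featureCounts 1.5.2 and mm10 (GRCm38). Annotation release and strand setting: not given in the sources used here. Groups came from the diet, genotype and sex labels. Replicate numbers follow accession order and pair no libraries.

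Counts were tested in R 4.3.3 with edgeR 4.0.16 (TMM factors, filterByExpr with a minimum count of 10, 12121 genes kept, 12 group means, quasi-likelihood F test), in 14 comparisons, with both sexes weighted equally. CPM are TMM-adjusted. TPM used GENCODE M21 exon lengths. An SE is the log2 fold change over the square root of F. The edgeR fit with the filter was tested on simulated counts, for HAMSAB against zero fiber in WT only. Alternatives were DESeq2 1.42.0 and limma 3.58.1 voom, DESeq2 factors, no filter, a title number term, only the libraries compared, and libraries left out.

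Genes named were the 15 highest members, those called, the 2 of smallest p where fewer than 2 were called, and called pathway genes. Vapa, Rab6a and the genes named from the unadjusted counts were added after their values were seen. Members and lists were chosen with earlier results of these data known. Some items are not reported here.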

Additional observations from a re-analysis of the deposited data

Results flagged for a closer look

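The 21 Rab genes named by rule were examined in each of the 6 diet-by-genotype groups, as 126 sets of 6 or 8 libraries. Sets of different genes share libraries and are not independent. Chance alone gives about 1 in 20, and 13 sets held a library far from the others. Of these, 4 were zero fiber AD male replicate 2, the library with 52114 counts: Rab10 at 15.5 CPM, below the rest of its group, Rab5c at 46.4 CPM, also below, and Rab29 and Rab40c at 46.4 CPM, above. In control WT, Rab11a was high in male replicate 2 (227 CPM), and Rab14 (male replicate 3, 649 CPM), Rab2a (female replicate 1, 120.0 CPM) and Rab5c (male replicate 4, 81.5 CPM) were low. Rab1a was low in HAMSAB AD male replicate 2 (228 CPM). Rab27a was high in control AD male replicate 3 (93.0 CPM) and in HAMSAB AD female replicate 1 (122 CPM). Rab6b was high in zero fiber AD male replicate 4 (111 CPM) and in control AD male replicate 3 (74.7 CPM).

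The response of Rab12 to HAMSAB against zero fiber differed between AD and WT by -1.42 on the log2 scale, by edgeR's test of the difference (adjusted p = 0.00684).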

How the results depend on the processing

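No paired analysis was possible because replicate numbers follow accession order and pair no libraries. With DESeq2's size factors, the DESeq2 test, a term for the title number, only the libraries compared, or without the 2 doubted libraries, all counts of called Rab genes stayed within 1.5 times. Without the filter on low counts, edgeR called 4 Rab genes across the 6 groups, and 2 each for HAMSAB against control in WT, zero fiber against control in WT, AD against WT on HAMSAB, HAMSAB against zero fiber (AD minus WT) and zero fiber against control (AD minus WT). These were Rab12 with Rab27a for HAMSAB against control in WT and AD against WT on HAMSAB, and Rab12 with Rab6b in the other 3. Without the filter, adjusted p fell steeply for some genes at nearly unchanged fold changes. For HAMSAB against zero fiber in WT, that of Dennd6a went from 0.04 to 3.19e-12 (edgeR), at 1.02 and 1.015 on the log2 scale. Others rose, such as Rab7 for HAMSAB against zero fiber in AD (0.352 to 0.704, edgeR). These added calls thus did not come with larger fold changes. The cause was not tested. All 59 Rab genes were then in the test. Of the 31448 genes in that test, edgeR called 4.17% across the 6 groups. In the other comparisons listed, in that order, it called 1.38%, 0.582%, 1.48%, 1.19% and 0.658%. Limma voom called 1 Rab gene for HAMSAB against zero fiber in WT and 2 for AD against WT on HAMSAB, and the cause was not tested. Leaving out 1 library at a time gave 1 to 2 Rab genes across the 6 groups, 0 to 2 for HAMSAB against zero fiber in WT, 0 to 1 for HAMSAB against control in WT, 1 to 2 for AD against WT on HAMSAB, and 0 to 1 for HAMSAB against zero fiber (AD minus WT). The Rab12 log2 fold change for HAMSAB against control in AD, -0.08 and not called, ran from -0.1718 to 0.0259 with 1 library left out, above 0 without control AD female replicate 2 (0.0259) and without control AD male replicate 3 (0.0217). Median log2 fold changes of all genes moved by at most 0.0187 with DESeq2's size factors. The alternatives for the pathway genes were added after their values were seen.

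At these depths a member with few counts carries wide counting error: Rab12 had 9 counts in the shallowest library and 61 to 958 in the rest.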
